A study of Mus musculus with 18 samples.

Results

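The gene set comprised 10 of the 23420 genes in the RNA-seq table of hindlimb skeletal muscle, chosen by name as components of the neuromuscular junction. They were the 5 muscle-type acetylcholine receptor subunits (Chrna1, Chrnb1, Chrnd, Chrne and Chrng), the receptor-clustering kinase Musk and its adaptor Dok7, the acetylcholine-degrading enzyme Ache, and the proteins that anchor this enzyme, Prima1 and Colq. Muscle was taken from C57BL/6J female mice, a common inbred strain, aged 2, 20 or 28 months (2-m, 20-m and 28-m muscle), with 3 mice and 3 poly(A) RNA libraries per age, and the 2-m mice served as the young reference. No transgene or treatment is named in the sample descriptions. Methylated DNA from the same mice, pooled by age, had been captured with a methyl-binding domain (MBD-seq) and sequenced, as had DNA of splenic T cells.

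At the neuromuscular junction the motor nerve terminal releases acetylcholine, which opens a pentameric ion channel packed in the muscle membrane below the terminal. The adult channel holds an epsilon subunit, whereas the fetal channel, which also returns in denervated fibres, holds gamma in its place. Nerve-derived agrin binds Lrp4 and activates MuSK, which with Dok7 clusters receptors through rapsyn. Acetylcholinesterase ends each signal, held in the synaptic cleft by the collagen tail ColQ or in membranes by PRiMA. Transcription of these genes is concentrated in the nuclei under the synapse and, for several of them, spreads along the fibre when innervation or activity is lost.

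The 5 promoters shown here belong to the genes on which the comparisons below turn: Chrna1 and Musk, which were higher at 28 than at 2 months, Chrng, whose young values were near 0 and whose calls depended on the libraries used, Chrne, for which no difference was detected, and Prima1, which was lower at 28 months. Each sequence is the 250 bases before the RefSeq transcript start, read 5′ to 3′ on the strand of the gene in GRCm38.p6. Capitals mark E-boxes (CANNTG, the site class of myogenic factors such as MyoD and myogenin, of which CAGCTG is one form) and N-boxes (CCGGAA, the site class of GABP), searched on both strands.
Chrna1: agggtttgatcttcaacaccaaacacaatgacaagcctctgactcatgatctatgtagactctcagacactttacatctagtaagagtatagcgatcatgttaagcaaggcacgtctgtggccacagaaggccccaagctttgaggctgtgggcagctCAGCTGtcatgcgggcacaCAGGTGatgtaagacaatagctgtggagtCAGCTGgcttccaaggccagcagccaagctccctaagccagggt
Chrng: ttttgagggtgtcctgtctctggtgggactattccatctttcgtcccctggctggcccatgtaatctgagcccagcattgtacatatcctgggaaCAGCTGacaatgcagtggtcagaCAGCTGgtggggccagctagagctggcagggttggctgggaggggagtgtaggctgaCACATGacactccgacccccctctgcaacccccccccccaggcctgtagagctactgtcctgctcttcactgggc
Musk: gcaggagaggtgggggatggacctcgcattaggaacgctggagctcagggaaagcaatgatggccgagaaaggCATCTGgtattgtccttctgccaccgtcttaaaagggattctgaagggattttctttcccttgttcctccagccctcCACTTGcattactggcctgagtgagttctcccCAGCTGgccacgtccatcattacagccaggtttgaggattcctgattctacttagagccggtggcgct
Chrne: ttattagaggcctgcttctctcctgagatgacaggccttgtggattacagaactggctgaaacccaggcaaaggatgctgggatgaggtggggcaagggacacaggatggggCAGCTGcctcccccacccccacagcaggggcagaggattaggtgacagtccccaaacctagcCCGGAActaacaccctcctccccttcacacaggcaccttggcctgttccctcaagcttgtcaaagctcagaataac
Prima1: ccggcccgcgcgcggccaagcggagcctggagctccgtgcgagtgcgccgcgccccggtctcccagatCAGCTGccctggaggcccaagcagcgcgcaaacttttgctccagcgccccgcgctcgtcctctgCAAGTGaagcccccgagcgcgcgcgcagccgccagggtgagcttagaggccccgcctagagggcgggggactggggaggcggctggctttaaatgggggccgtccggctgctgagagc
These windows lie at chr2:73580339-73580588 (minus strand) for Chrna1, chr1:87205561-87205810 (plus) for Chrng, chr4:58285712-58285961 (plus) for Musk, chr11:70619195-70619444 (minus) for Chrne and chr12:103242147-103242396 (minus) for Prima1. Counted back from the transcript start, with the base before it as -1, the Chrna1 E-boxes began at -92, -73 and -44, those of Chrng at -155, -132 and -75, and those of Musk at -177, -100 and -68. The Chrne window held an E-box of the CAGCTG form at -138 and an N-box at -76. Of the 8 members with a promoter sequence, 8 held an E-box, 5 a CAGCTG and 1, Chrne, the N-box. Of 32851 promoters of the same length, 66.2% held an E-box, 13.0% a CAGCTG and 12.0% an N-box. These were counted singly, whereas a member was counted once if any of its windows held the motif. The second window of Dok7 held none of the motifs. Chrnd and Colq had no entry in the promoter table.

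The members are spread over the genome, with one exception. Chrnd (chr1:87190597-87200070) and Chrng (chr1:87205811-87211835) follow each other on the same strand, 5740 bases apart. Chrnb1 (chr11:69784036-69795937) and Chrne (chr11:70614883-70619194) share a chromosome but lie 818945 bases apart. Chrna1 occupies chr2:73563281-73580338, Musk chr4:58285962-58374303, Dok7 chr5:35056766-35080964, Ache chr5:137288254-137294466, Prima1 chr12:103196908-103242146 and Colq chr14:31523084-31577383. The spans of Chrna1, Chrne and Ache overlap other annotated genes, and the counting was not stated to use strand, so reads of overlapping exons could not be assigned with certainty. The protein-coding gene inside Chrne, 4930544D05Rik, was listed at 0 to 14.1 normalized counts.

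Depth per library was 20203833 to 71115244 reads on genes, recovered from the deposited normalized read counts. Muscle fibre markers were abundant in every library (summed normalized counts of 8 genes, 5387290 to 6836030). Of 9 motor axon markers, Chat, Slc18a3 and Mnx1 were at 0 in all 9 libraries and the list summed to 11.2 to 38.8. The libraries were not equal in other tissue. Replicate 1 of 2-m muscle stood apart, with 4754 for 5 marrow neutrophil markers (14.9 to 74.2 in the other 8) and 3934 for 5 bone and cartilage markers (330 to 1614 in the other 8). All 2-m libraries had more fibroblast and matrix transcripts (5 genes, 50146 to 104713 against 20862 to 28378 at the later ages), a difference carried by the 3 collagens Col1a1, Col1a2 and Col3a1, whereas Dcn and Pdgfra were not called. The 5 adipocyte markers summed to 1547 to 4433 at 2 months, 491 to 764 at 20 months, where 4 were called lower, and 613 to 1516 at 28 months, where 2 were called lower than at 2 months. The slow-fibre myosin Myh7 was at 2773 to 44700.5 in 2-m muscle, 62731 to 109827 at 20 months and 80566 to 112463 at 28 months, and was called higher at both. The 3 libraries numbered 3 had 29.6% to 32.5% of their sum in the 10 highest genes against 43.1% to 48.4% in the rest. The part of these differences in the results was not tested beyond the values given below. In whole muscle, fewer expressing nuclei and less RNA per nucleus cannot be told apart.

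In 20-m against 2-m muscle, 5 of the 10 members differed at an adjusted p under 0.05 (limma-trend across all 13178 genes tested, Benjamini-Hochberg adjustment), against 16.6% of all genes tested. Of these, 4 were higher (9.42% of all genes) and 1 was lower (7.13%). In 28-m against 2-m muscle, 7 of 10 differed (13.8% of all genes), 5 higher (7.53%) and 2 lower (6.24%). In 28-m against 20-m muscle, 1 of 10 differed (0.379% of all genes), and it was lower (0.167%), while none was called higher by limma (0.212%), with 5 members at an unadjusted p under 0.05 (10.6% of all genes). DESeq2 called 1 member higher there, Chrna1, beside 123 of all genes tested. The 3 values of one age did not overlap those of the other for 6, 7 and 2 members in these comparisons, against 36.0%, 30.3% and 17.5% of all genes. The median log2 fold change of the members was 0.17, 0.49 and 0.26, beside -0.02, -0.01 and -0.00 for all genes tested. The counts at 20 and 28 months against 2 months include Chrng, which passed the filter on low values only through the older libraries and whose calls passed in 8 and 12 of 19 alternatives. The comparisons share libraries, so their counts are not independent of each other. With libraries rescaled to the same sum, 2 members were called at 20 against 2 months, beside 586 of all genes in place of 2181. Without replicate 1 of 2-m muscle, 3 members were called at 20 months, 6 at 28 months against 2 months, and 1 at 28 against 20 months, beside 10.6%, 8.40% and 0.349% of all genes in the same fit. Requiring a fold over 2 and an unadjusted p under 0.05 instead, 2, 5 and 1 members passed in the 3 comparisons, beside 5.17%, 5.14% and 1.31% of all genes.

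**Figure D1:**
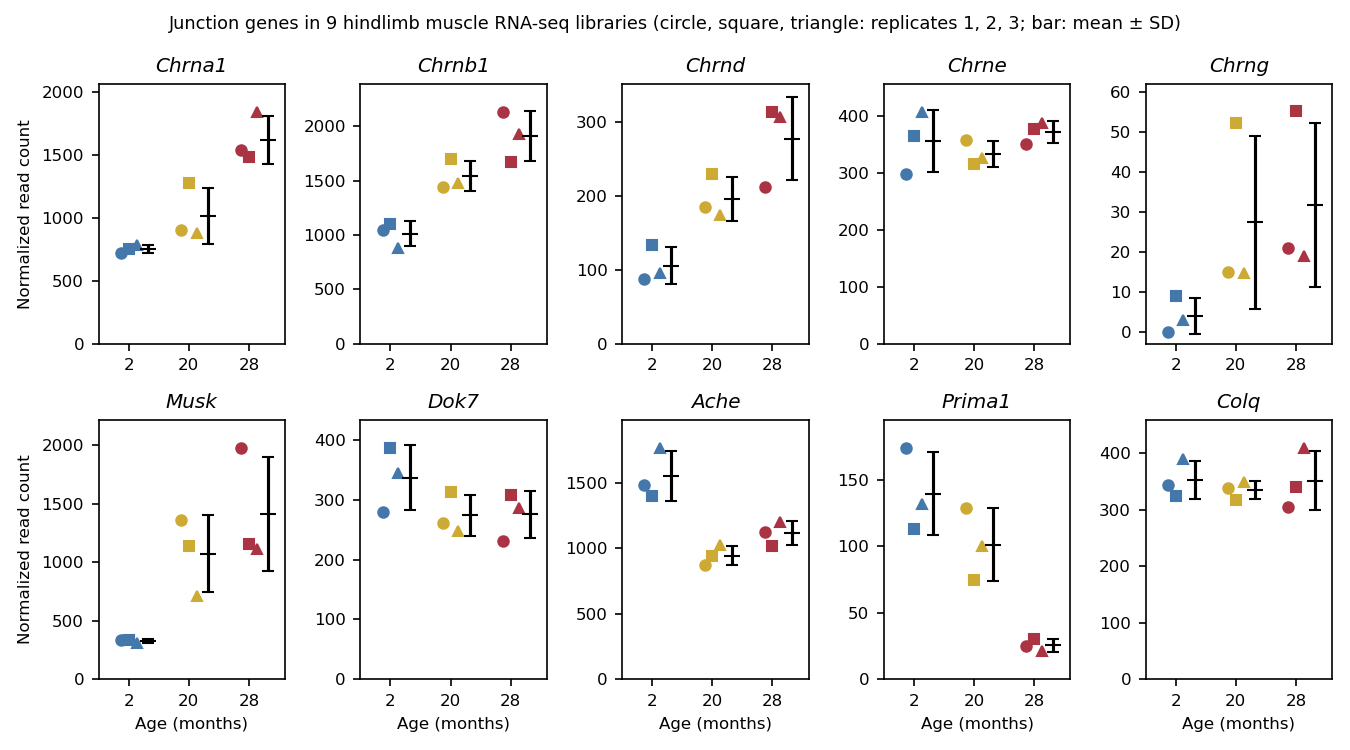
Normalized read counts (y axis, linear) of the 10 members in each of the 9 muscle libraries by age in months (x axis). Circles, squares and triangles are replicates 1, 2 and 3, and bars show the mean ± SD (n = 3). Musk at 20 and 28 months lies wholly above 2 months, Prima1 at 28 months lies wholly below both other ages, and Chrne and Colq overlap at all ages.

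Among the receptor subunits, the 3 that occur in both channel forms were higher in old muscle. Chrna1, which encodes the acetylcholine-binding alpha subunit, was at 722, 754 and 787 normalized counts in 2-m muscle, at 900.4, 1276 and 878 in 20-m muscle and at 1541, 1486 and 1840.2 in 28-m muscle. Every older library lay above every younger one at each step of age. The difference between 28 and 2 months was 1.10 ± 0.14 on the log2 scale (SE, adjusted p = 0.000261), about 2.14-fold. At 20 against 2 months it was 0.41 ± 0.14 (adjusted p = 0.0584) and at 28 against 20 months 0.69 ± 0.14 (adjusted p = 0.0597). These 2 differences passed in 4 and 7 of 20 alternatives. Both passed with DESeq2 on recovered reads (adjusted p = 0.0291 and 0.00123), with a term for the libraries numbered 3 (0.0498 and 0.0423) and in the fit without replicate 3 of 20-m muscle (0.0427) or without replicate 2 of 20-m muscle (0.0103), respectively, and the second also without replicate 2 of 2-m muscle (0.0462). Without replicate 2 of 20-m muscle, the highest at that age, the difference at 20 months was 0.24 (adjusted p = 0.218).

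Chrnb1, the beta subunit, was at 1049.8, 1101 and 884 in 2-m muscle, 1446, 1704 and 1481 in 20-m muscle and 2131, 1674 and 1931 in 28-m muscle. The 2-m libraries were the lowest 3, and the later ages overlapped. It was higher at 20 months by 0.61 ± 0.11 (adjusted p = 0.00381) and at 28 months by 0.92 ± 0.11 (adjusted p = 0.000262), and the step between them was 0.31 ± 0.11 (adjusted p = 0.358). With every library rescaled to the same sum, the call at 20 months was lost (adjusted p = 0.0737).

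Chrnd, the delta subunit, was at 86.9, 134 and 96.0 in 2-m muscle, 185, 229 and 174 in 20-m muscle and 213, 314 and 308 in 28-m muscle. It was higher by 0.90 ± 0.22 at 20 months (adjusted p = 0.0139) and by 1.39 ± 0.22 at 28 months (adjusted p = 0.0012), again with no overlap with 2 months. The call at 20 months was lost without replicate 1 of 2-m muscle (adjusted p = 0.0555), without replicate 2 of 20-m muscle (0.0653) and with libraries rescaled to the same sum (0.0832), whereas the call at 28 months passed under all 20 alternatives.

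Chrne and Chrng encode the subunits that distinguish the adult from the fetal channel. Chrne, the adult epsilon subunit, was at 299, 365 and 407 in 2-m muscle, 359, 316 and 326 in 20-m muscle and 351, 377 and 389 in 28-m muscle, and all ages overlapped. Its log2 differences were -0.09 ± 0.14 at 20 months (adjusted p = 0.698) and 0.07 ± 0.14 at 28 months (adjusted p = 0.779), which became 0.01 without replicate 3 and -0.05 without replicate 1 of 2-m muscle. Chrng, the fetal gamma subunit, was near the limit of detection in young muscle, with 0, 5 and 4 reads (0, 8.81 and 2.89 normalized counts). It had 8, 31 and 27 reads in 20-m muscle (14.9, 52.3 and 14.7 normalized counts) and 11, 40 and 10 reads in 28-m muscle (20.9, 55.2 and 18.9). Replicate 2 was the highest library at both later ages, and all 6 older values lay above the 3 young ones. Chrng passed the filter on low values only through the older libraries. The fitted difference was 2.82 ± 0.86 at 20 months (adjusted p = 0.0412) and 3.11 ± 0.86 at 28 months (adjusted p = 0.0304), a size that depends on the pseudocount of 1. These calls passed in 8 and 12 of 19 alternatives and were lost without replicate 1 of 2-m muscle (adjusted p = 0.112 and 0.0841), where the gene had no read. Leaving out replicate 3 of 2-m muscle (0.0674 and 0.0527) ended both calls as well. At 20 months the call was also lost without any one of the 20-m libraries (0.0593 to 0.176) or without replicate 1 or 3 of 28-m muscle (0.0547 and 0.0526). At 28 months it was lost without any one of the 28-m libraries (0.059 to 0.0956).

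Ratios within a library do not depend on how libraries are scaled to each other. Per kilobase of the longest curated transcript, Chrng made up 0%, 1.96% and 0.584% of the sum of Chrng and Chrne in 2-m muscle. The share was 3.34%, 12.1% and 3.60% in 20-m muscle and 4.69%, 10.8% and 3.87% in 28-m muscle. Epsilon transcripts therefore remained the larger part in every library. The ratio of Chrna1 to Chrne per kilobase was 0.788 ± 0.092 (SD, n = 3), 1.14 ± 0.31 and 1.60 ± 0.15 in the order of age. For Chrnb1 over Chrne the values were 2.15 ± 0.50, 3.45 ± 0.51 and 3.82 ± 0.62, and for Chrnd over Chrne 0.160 ± 0.035, 0.318 ± 0.063 and 0.399 ± 0.065. In all 3 ratios no 20-m or 28-m library fell within the range of the 2-m libraries. No test was run on the ratios.

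**Figure D2:**
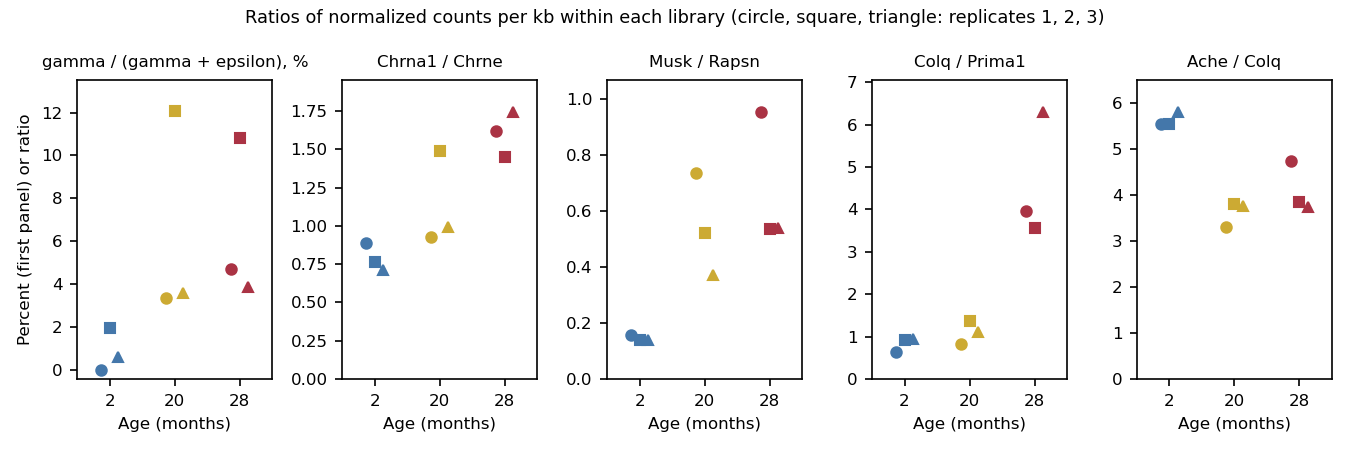
Ratios of normalized counts per kilobase within each of the 9 libraries (y axis, percent in the first panel and ratio in the others) by age in months (x axis), with circles, squares and triangles for replicates 1, 2 and 3. The gamma share stays under 2% at 2 months and reaches 12.1% in one 20-m library, and Colq over Prima1 exceeds 3.5 only at 28 months.

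Musk, the muscle-specific receptor tyrosine kinase, was at 337, 331 and 308 normalized counts in 2-m muscle, 1364, 1136 and 714 in 20-m muscle and 1979, 1157 and 1109.8 in 28-m muscle. All older libraries lay far above the young range, and the 2 older ages overlapped. The gene was higher by 1.67 ± 0.23 at 20 months (3.17-fold, adjusted p = 0.000573) and by 2.07 ± 0.23 at 28 months (4.19-fold, adjusted p = 0.000148), and both calls passed under all 20 alternatives. Between 20 and 28 months the difference was 0.40 ± 0.23 (adjusted p = 0.588). Replicate 1 of 28-m muscle was the highest single value. Dok7, the adaptor that activates MuSK from inside the fibre, was at 281, 388 and 345 in 2-m muscle, 262, 314 and 248 in 20-m muscle and 232, 309 and 287 in 28-m muscle. The ages overlapped, with differences of -0.29 ± 0.17 at both later ages (adjusted p = 0.25 and 0.281). The ratio of Musk to Dok7 per kilobase stood at 0.825 ± 0.158, 3.28 ± 1.00 and 4.53 ± 2.30 in the order of age.

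The enzyme and one of its anchors were lower in old muscle. Ache, acetylcholinesterase, was at 1482, 1399 and 1767 in 2-m muscle, 871, 939.8 and 1021 in 20-m muscle and 1127, 1016 and 1197 in 28-m muscle. All 6 older libraries lay below the 3 young ones. Its log2 difference was -0.71 ± 0.11 at 20 months (adjusted p = 0.00104) and -0.47 ± 0.11 at 28 months (adjusted p = 0.0129). With libraries rescaled to the same sum the differences were -0.69 and -0.43 and neither call passed (adjusted p = 0.0792 and 0.442). Ache is also made by erythroid cells, so their markers were set beside it. Of 5 erythroid markers 3 were in the table. Hba-a1 was at 0 throughout and Hba-a2 at 0 to 6.69, so the summed level was almost wholly that of Alas2. The sum was 831 in replicate 1 of 2-m muscle but 149.8 and 99.6 in replicates 2 and 3, below the 204 to 366 of the older libraries. The part of erythroid cells in the Ache values was not tested. The ratio of Ache to Colq per kilobase stood at 5.62 ± 0.15 at 2 months, then at 3.62 ± 0.28 and 4.10 ± 0.54.

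Prima1, the proline-rich membrane anchor, was called lower at 28 months against both other ages. It was at 174, 113 and 131 normalized counts in 2-m muscle, 129, 74.2 and 100.2 in 20-m muscle and 24.7, 30.4 and 20.8 in 28-m muscle. The first 2 ages overlapped and the oldest lay below both. The log2 difference was -2.41 ± 0.28 at 28 against 2 months (adjusted p = 0.000178), -1.94 ± 0.28 at 28 against 20 months (adjusted p = 0.011) and -0.47 ± 0.28 at 20 against 2 months (adjusted p = 0.284). The call at 28 against 20 months was lost without replicate 1 (adjusted p = 0.0832) or replicate 3 (0.0588) of 20-m muscle. Prima1 is also a gene of neural tissue. The 8 Schwann cell markers summed to 6407 to 8107 in 2-m muscle, then 4097 to 6010 and, at 28 months, 5315 to 7978. Of the 7 tested, 2 were called lower at 20 months, the median log2 differences from 2 months were -0.48 and -0.00, and their part in the Prima1 values was not tested. Colq, the collagen tail of the synaptic enzyme, was at 343, 324 and 391, then 338, 317 and 349, then 306, 339.7 and 409.6, with differences of -0.07 ± 0.14 and -0.01 ± 0.14 (adjusted p = 0.762 and 0.971). The ratio of Colq to Prima1 per kilobase stood at 0.832 ± 0.176 at 2 months, then at 1.10 ± 0.26 and, at 28 months, at 4.61 ± 1.48.

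**Figure D3:**
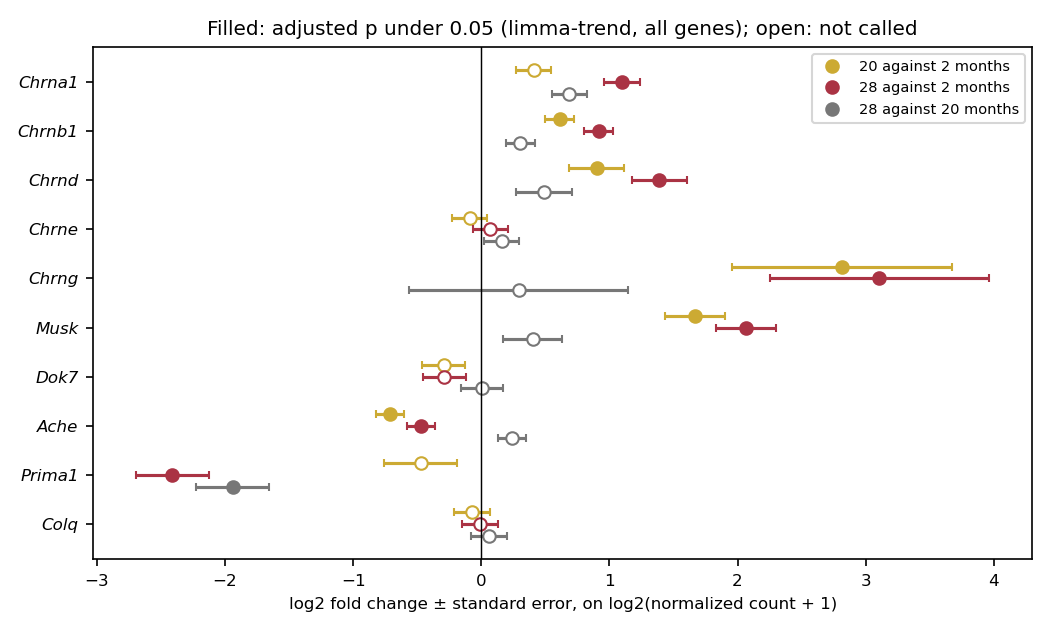
Log2 fold change ± standard error of each member (x axis, on log2 of the normalized count plus 1) in the 3 age comparisons, from limma-trend on 9 libraries. Filled points passed an adjusted p under 0.05 and open points did not. Musk at 28 against 2 months sits at 2.07 and Prima1 at -2.41, and Chrne, Dok7 and Colq have only open points.

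The order of the levels also differed by age. Per kilobase, the mean normalized counts in 2-m muscle ran from Ache (700.4 ± 87.1, SD, n = 3) and Chrnb1 (471 ± 52.9) through Chrne (224 ± 34.4), Chrna1 (175 ± 7.49), Prima1 (154 ± 34.6), Colq (124 ± 12.0), Dok7 (118 ± 18.7) and Musk (95.1 ± 4.40) to Chrnd (35.6 ± 8.41) and Chrng (2.03 ± 2.34). From Chrna1 to Musk, each gene's range overlapped that of the next in this order. In 28-m muscle Chrnb1 was first (889.7 ± 107), followed by Ache (503 ± 41.1), Musk (414 ± 143) and Chrna1 (376 ± 44.1), whose ranges overlapped from one to the next. Chrne followed (234 ± 12.1), then Colq (124 ± 18.7), Dok7 (96.0 ± 13.9), Chrnd (93.7 ± 19.1), Prima1 (27.9 ± 5.35) and Chrng (16.5 ± 10.6). Dok7 and Chrnd overlapped, as did Prima1 and Chrng. Musk thus lay below Prima1, Colq and Dok7 in young muscle and above all 3 in the oldest, where its range also lay wholly above theirs.

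The genes with the most similar pattern over the 9 libraries were named by Pearson's r of the log2 values, as a description only, since libraries of an age share that age. For Chrna1 the first 2 were Aif1l (r = 0.970) and Pld3 (0.964). For Musk they were Rapgef1 (0.983), Ubxn4 (0.981) and the calcium channel gene Cacna1i (0.976), with a mean of 7.23, 92.3 and 138 normalized counts in the order of age. For Ache they were Itm2a (0.986), Spon2 (0.982) and Agpat5 (0.976), and for Chrne Gpn1 (0.945), 4932415G12Rik (0.942) and Nudt14 (0.914).

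A wider list held other genes of the junction. Of 52 genes in agrin and MuSK signalling, neuregulin and synaptic transcription, and the scaffold and basal lamina, 50 were tested. At 20 against 2 months 7 were higher and 4 lower, 11 of 50 against 16.6% of all genes tested. At 28 against 2 months 4 were higher and 2 lower, 6 of 50 against 13.8%, and both shares were near those of all genes. Their median log2 differences were -0.08 and 0.01. At 28 against 20 months none was called by limma or edgeR (8 and 10 at an unadjusted p under 0.05, beside 10.6% and 10.5% of all genes). DESeq2 called 2 there, beside 228 of all genes tested. The count at 20 months ranged from 3 to 13 when 1 library was left out, with 3 without replicate 1 and 4 without replicate 2 of 20-m muscle, 6 without replicate 1 and 5 without replicate 3 of 2-m muscle. At 28 months it was 2 without replicate 1 of 2-m muscle. In that fit 10.6% of all genes were called at 20 months and 8.40% at 28 months, also fewer than with all libraries. Shares of all genes were not taken for the other left-out libraries. The agrin receptor Lrp4 was at 678, 934 and 621 in 2-m muscle and 1068, 1236 and 998 in 28-m muscle, a difference of 0.58 ± 0.14 (adjusted p = 0.0155). That call was lost without replicate 1 or 3 of 2-m or replicate 2 of 28-m muscle (adjusted p = 0.0632, 0.0532 and 0.0511) and with libraries rescaled to the same sum (0.117). Agrn itself (-0.21 ± 0.16, adjusted p = 0.439) and Rapsn, the receptor clustering scaffold (-0.09 ± 0.09, adjusted p = 0.587), were not called at 28 months or at 20 months. The mean of Rapsn was 1054 ± 49.7, 939 ± 78.5 and 993 ± 26.7 normalized counts at the 3 ages. The ratio of Musk to Rapsn per kilobase accordingly went from 0.146 ± 0.009 to 0.543 ± 0.183 and 0.677 ± 0.241. Nrg1, encoding neuregulin, was at 0 to 5.29 and was not tested.

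Among the genes named by the smallest adjusted p, Syne1, whose product anchors synaptic nuclei, was higher at 20 months (0.65 ± 0.11, adjusted p = 0.00204) and 28 months (0.70 ± 0.11, adjusted p = 0.0013). Pdzrn3, a ligase that acts on MuSK, was higher at 20 months (0.41 ± 0.07, adjusted p = 0.00281, but 0.268 with libraries rescaled to the same sum) and stood at 0.06 ± 0.07 at 28 months (adjusted p = 0.629). Col4a3, a chain of the synaptic basal lamina, was lower at 28 months, at 107, 82.8 and 88.8 in 2-m and 7.59, 27.6 and 26.4 in 28-m muscle (-2.30 ± 0.43, adjusted p = 0.00406). Its partner chains were lower in 1 comparison each, Col4a4 at 28 months (-1.50 ± 0.45, adjusted p = 0.044) and Col4a5 at 20 months (-1.25 ± 0.32, adjusted p = 0.0185). The 3 collagen genes of the matrix list were higher in all 2-m libraries, as given above, and their part in these values was not tested. The tyrosine kinase Abl2 (0.39), the integrin Itga7 (0.33 and, at 28 months, 0.38) and the cytoskeletal linker Macf1 (0.64 at 28 months) were called higher, and the synaptic transcription factor Etv5 (-0.46) lower at 20 months. The calls of Abl2, Col4a5, Etv5 and Itga7 at 20 months passed in 16, 16, 17 and 14 of 20 alternatives. At 28 months Itga7 passed in 18 and Macf1 in 17 of 20, and Col4a4 in 10 of 19. With libraries rescaled to the same sum the calls of Abl2 (adjusted p = 0.314), Etv5 (0.407), Itga7 (0.457 and 0.363), Col4a4 (0.139) and Col4a5 (0.0592) were lost. The libraries without which a call was lost were replicates 1 and 3 of 2-m muscle, all 3 of 20-m muscle and replicates 1 and 3 of 28-m muscle.

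A further list held genes whose transcripts are known to change when muscle loses its nerve. Of 15 such genes other than the members, 9 were higher and 1 lower at 20 months, 11 higher and 1 lower at 28 months, and 2 higher at 28 against 20 months. Of all genes tested, 9.42%, 7.53% and 0.212% were called higher in these comparisons. Their median log2 differences were 0.76, 0.92 and 0.28. Sln, a small inhibitor of the calcium pump, went from 29.0, 109 and 31.0 in 2-m muscle to 702, 565 and 548 in 20-m and 1871, 1851 and 2414 in 28-m muscle (5.42 ± 0.37 at 28 months, adjusted p = 3.17e-06). Among the members, replicate 2 of 20-m muscle was the highest 20-m library for Chrna1, Chrnb1, Chrnd and Chrng.

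Transcription factors of this list went in both directions. Runx1, a factor induced in denervated fibres, was at 165, 127 and 96.0 in 2-m muscle, then 284, 529.8 and 209, then 1046, 863 and 706 (2.76 ± 0.29, adjusted p = 9.5e-05). Myog, myogenin, was at 218, 190.3 and 308, then 166, 262 and 172, then 583, 525 and 342. It was higher at 28 than at 2 months by 1.01 ± 0.24 (adjusted p = 0.016), a call lost without replicate 1 of 2-m muscle (0.0581) or replicates 1 or 2 of 28-m muscle (0.078 and 0.0518). At 28 against 20 months Myog passed narrowly (1.26 ± 0.24, adjusted p = 0.0473), in 11 of 20 alternatives, and not without replicate 1 of 2-m muscle, replicate 1 or 3 of 20-m muscle or replicate 1 or 2 of 28-m muscle (0.0674 to 0.219). Myod1, the related factor that also binds E-boxes, was lower at both ages (-0.80 ± 0.12 and -0.75 ± 0.12, adjusted p = 0.000702 and 0.00123). Gadd45a, which is induced by denervation, stood at -0.08 ± 0.12 at 20 months (adjusted p = 0.703) and was higher at 28 months, by 1.26 ± 0.12 over 2 months and 1.33 ± 0.12 over 20 months (adjusted p = 6.12e-05 and 0.00032). Embryonic myosin Myh3 was higher by 2.51 ± 0.13 at 28 months (adjusted p = 8.46e-07), and Dach2 (1.66 ± 0.26), Hdac9 (0.76 ± 0.12) and the ligase Trim63 (0.79 ± 0.16) were higher at 20 months. At 28 months Hdac9 was higher by 0.85 ± 0.12 (adjusted p = 0.000694), and Dach2 stood at 332 to 403 against 91.4 to 189 in 2-m muscle. Trim63 at 28 months, 9314 to 11576, overlapped the 5960 to 10041 of 2-m muscle. The adhesion molecule Ncam1 was higher at both ages (0.66 ± 0.17 and 0.82 ± 0.17, adjusted p = 0.0225 and 0.00833), the first of which was lost without replicate 2 of 2-m (0.0645) or replicate 1 or 3 of 20-m muscle (0.094 and 0.0636) and with rescaling to the same sum (0.152).

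**Figure D4:**
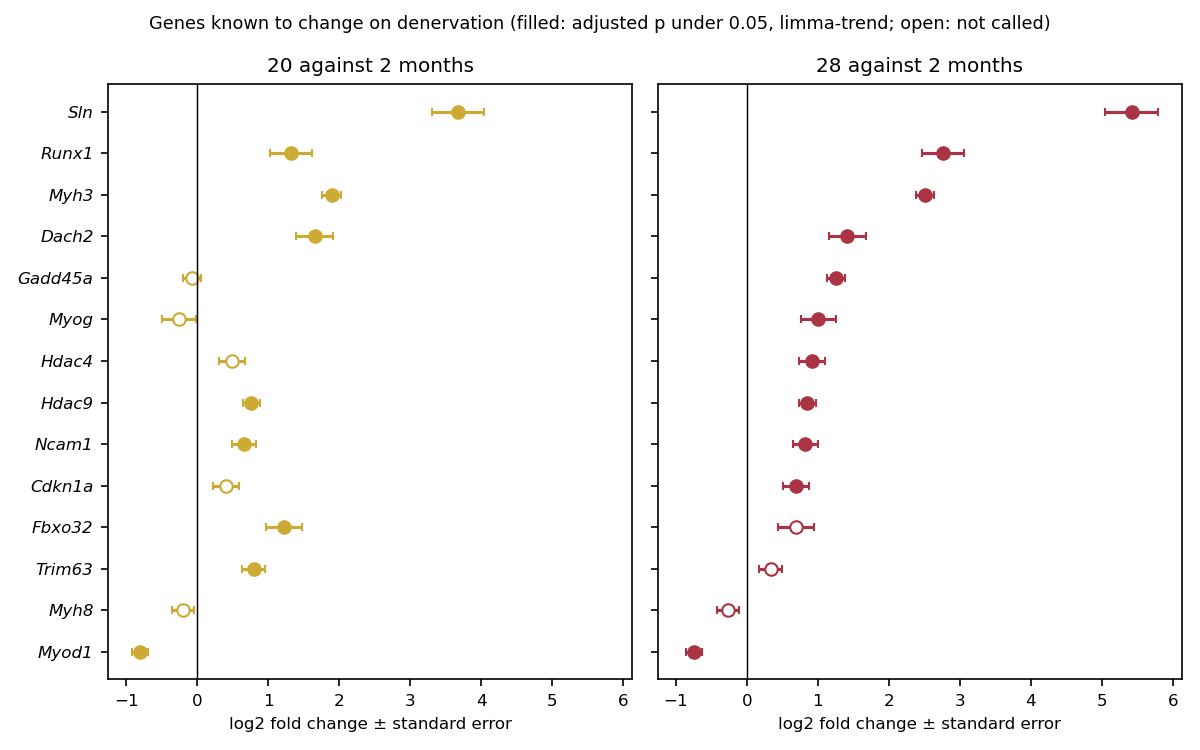
Log2 fold change ± standard error (x axis) of 14 of the 15 genes known to change on denervation, at 20 against 2 months (left) and 28 against 2 months (right), ordered by the right panel. Filled points passed an adjusted p under 0.05 in limma-trend. Sln lies farthest to the right at 28 months (5.42), and Myod1 lies to the left in both panels.

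Of the 11 neuronal acetylcholine receptor subunit genes, 3 passed the filter on low values. Chrna9 was higher at 20 months (1.57 ± 0.36, adjusted p = 0.0117) and 28 months (2.16 ± 0.36, adjusted p = 0.00206), going from 17.8, 12.3 and 21.7 in 2-m muscle to 85.4, 93.9 and 60.4 in 28-m muscle. The call at 20 months was lost without replicate 1 of 20-m muscle (adjusted p = 0.0671). Per kilobase its mean was 8.62 in 2-m and 39.9 in 28-m muscle, below Chrna1 at every age. Chrna2 and Chrna10 were not called in any comparison.

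MBD-seq gave another readout of the same genes, with 1 column of values per age and tissue and therefore no test. Methylated fragments were counted in the 500-base bins that overlap 1000 bases before to 500 after each start, and intervals are exact 95% intervals that cover counting error only. In 2-m muscle the promoters of Chrne, Chrna1, Chrnd and Chrng were the most captured of the members, at 35.5, 30.9, 30.0 and 28.4 normalized counts per bin, against a median of 8.41 over all genes. Chrnb1 (2.96) and Ache (0) were low, and their 250-base windows held 14 and 25 CpGs against 3 in Chrna1, 2 in Chrng, 1 in Chrne and a median of 6 over all promoters. Other members did not follow the same order: Prima1 held 29 CpGs and stood at 18.4 per bin, and the first of 2 windows of Dok7 held 4 CpGs at 7.10 per bin. In T cells of 2-m mice the same 4 were at 30.2, 43.1, 45.2 and 31.7 and Musk was at 38.8, against a median of 9.64 over all genes.

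From 2 to 28 months the muscle value at Chrne went from 35.5 to 23.8 and 16.9 per bin (log2 ratio at 28 months -1.07, interval -1.44 to -0.71, from 156, 113 and 106 reads). It was also lower at Chrna1 (-0.43, -0.78 to -0.08), Chrnd (-0.57, -0.93 to -0.21) and Prima1 (-0.90, -1.40 to -0.40). At Chrng (-0.29, -0.64 to 0.07) and Musk (0.33, -0.07 to 0.73) the interval held 0. The interval also held 0 at Chrnb1 (-0.75), Colq (0.33) and Dok7 (-0.31). Ache had 0, 3 and 10 reads at the 3 ages, and the lower bound of its log2 ratio at 28 months was 0.65. The median log2 ratio over the 9 members with reads at both ages was -0.43, beside 0.25 over 24178 genes. The size of these ratios, and the direction of some, depends on the scale of the table. The deposited values of 28-m muscle sum to less than those of 2-m muscle, and rescaling both to the same sum shifts every log2 ratio by 0.44, to a median of 0.01 for the members and 0.70 for all genes. So shifted, the ratios at Chrne, Prima1, Chrnb1 and Chrnd stay below 0, and those at Chrna1, Chrng and Dok7 do not. Only the interval at Chrne then lies below 0, and those at Musk, Colq and Ache lie above it. In T cells the median of the members was 0.27 at 28 months, beside 0.28 for all genes, and intervals lay above 0 at Prima1 (1.70, 1.19 to 2.24), Chrng (0.68, 0.33 to 1.03) and Ache (2.55, 0.28 to 5.80, from 2 and 9 reads). At the same sum these T cell medians were -0.05 and -0.04.

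**Figure D5:**
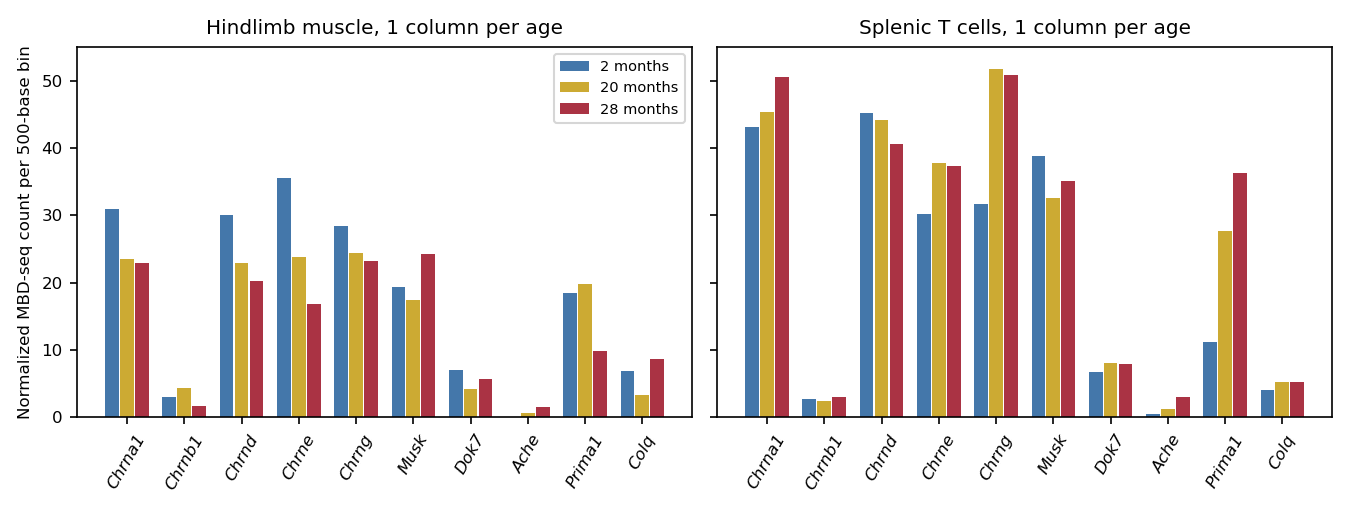
Normalized MBD-seq counts per 500-base bin (y axis, bars from 0) over the promoter windows of the 10 members (x axis) in hindlimb muscle (left) and splenic T cells (right), with 1 column of values per age and no error bars. Chrne stands at 35.5 at 2 months and 16.9 at 28 months in muscle, and Prima1 at 9.88 in 28-m muscle and at 11.2 and 36.3 in T cells of 2-m and 28-m mice.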

How the data were processed

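The authors trimmed reads with Trim Galore, mapped them to mm10 with Bowtie2 for MBD-seq and, for RNA-seq, with Hisat2 as the study's methods state (the submitters' processing notes list TopHat), counted them per RefSeq gene (HTSeq) or per 500-base bin (bedtools), and deposited both as normalized counts, that is, signal values divided by a size factor per library (DESeq2). RNA was sequenced from 3 mice per age and DNA of 3 mice was pooled per age for MBD-seq. The labels list 2 muscle captures per age and the table holds 1 muscle column, and which captures it holds is not given in the sources used here. All deposited values were whole multiples of the smallest (tolerance 0.001 reads), from which reads were recovered. The 5 rows naming no gene, 37.9% to 47.7% of each total, were left out.

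limma (3.58.1, trend, R 4.3.3) was fitted to log2(normalized count + 1) of the 13178 genes with a mean of at least 10 over the 9 libraries, with age as the only term, and p-values were adjusted by the Benjamini-Hochberg method. edgeR (4.0.16) and DESeq2 (1.42.0) on recovered reads, other pseudocounts, filters, scalings and left-out libraries were alternatives. Levels between genes were compared per kilobase of the longest curated RefSeq transcript (GRCm38.p6), and promoter sequences are from RefSeq. The members and lists were chosen with earlier results of these data known. Named were all members and, of the other lists, the called genes with the smallest adjusted p (at most 6 per comparison and list), with Agrn, Lrp4, Rapsn, Nrg1, Myog, Ncam1 and Runx1 in any case, and 1 gene that the rule names is not reported here. The design gave no covariate. With 1 library per mouse, p-values rest on the spread between libraries of an age, in which differences between mice and between libraries cannot be told apart.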

Additional observations from a re-analysis of the deposited data

How the results depend on the processing

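Of 1356 alternative values of named genes, 1250 kept their direction and their side of the threshold, 79 lost and 12 gained a call, and 15 changed sign. The sign changes were all in comparisons that were not called. When 1 library was left out, Chrne ranged from -0.211 to 0.012 (log2, 20 against 2 months) and -0.051 to 0.172 (28 against 2), Chrng from -0.186 to 0.875 (28 against 20), Colq from -0.13 to 0.00347, -0.126 to 0.0851 and -0.0536 to 0.157 in the 3 comparisons in that order, and Dok7 from -0.0828 to 0.126 (28 against 20). Colq was at 0.0286 (28 against 2) with libraries rescaled to the same sum, and Dok7 at -0.0507 (28 against 20) with quantile normalization.

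Rescaling to the same sum called 586, 554 and 24 genes of all tested at 20 against 2, 28 against 2 and 28 against 20 months, in place of 2181, 1814 and 50. At 28 against 20 months DESeq2 called 228. Under rescaling 2 members were called at 20 months, 1 and 3 other junction genes at 20 and 28 months, and 4 denervation genes at 28 against 20. Requiring a fold over 2 and an unadjusted p under 0.05 called 2 members and 2 other junction genes at 20 months, 2 other junction genes at 28 months and 1 at 28 against 20, and 6, 7 and 5 denervation genes in the 3 comparisons, beside 5.17%, 5.14% and 1.31% of all genes. For 28 against 20 months, 2 members were called with quantile normalization, with a term for the libraries numbered 3, with only the 2 ages in the fit and with DESeq2. Other junction genes then numbered 1 with the term, 1 with only the 2 ages and 2 with DESeq2. Denervation genes numbered 1 with a pseudocount of 0.1, without a filter, with a mean of at least 50 and with quantile normalization, 4 with the term, 6 with only the 2 ages and 5 with DESeq2. Of all genes, 49 were called there with quantile normalization, 103 with the term, 40 without a filter and 228 with DESeq2. For the other settings the calls over all genes were not counted. At 28 against 2 months the term and DESeq2 each called 10 other junction genes of 50 tested, beside 2423 and 2125 of all 13178 genes. With 1 library left out, members called ranged from 3 to 5 at 20 months and 0 to 2 at 28 against 20, other junction genes from 3 to 13, 2 to 7 and 0 to 1 in the 3 comparisons, and denervation genes from 1 to 4 at 28 against 20. Without replicate 1 of 2-m muscle, 10.6%, 8.40% and 0.349% of all genes were called in the 3 comparisons. The causes were not tested.

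The replicate numbers did not pair all libraries: deviations of those numbered 3 correlated at 0.1093 to 0.1613, those numbered 1 and 2 at 0.0998 or less. The highest value for different numbers was 0.1165, for replicate 2 of 20-m and replicate 1 of 28-m muscle. A replicate block called Chrna1 at 20 against 2 (adjusted p = 0.0414) and 28 against 20 months (0.0309), 2 members, 1 other junction gene and 7 denervation genes at 28 against 20 months, 11 other junction genes at 28 against 2 months, and 3000, 2529 and 138 genes of all tested. The promoter median was -0.65 with 500 bases before the start, -0.33 with 2000 and 0.01 with libraries rescaled to the same sum. With 3 mice per age and 0 to 5 reads of Chrng per young library, the size of the Chrng difference was not fixed by these data.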
